A study of Mus musculus with 12 samples.

Results

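The 8 genes described here encode proteins that set how readily cell membranes peroxidise, or that mark cells in which they do: Acsl4, Lpcat3, Gpx4, Aifm2, Slc3a2, Ncoa4, Ptgs2 and Sat1. They were chosen by gene symbol for their known roles, with earlier results of these data known. All 8 were found among the 25947 entries of the deposited expression table. Ferroptosis is a form of cell death in which iron drives the peroxidation of polyunsaturated fatty acids held in membrane phospholipids. Acsl4 and Lpcat3 load those fatty acids into phospholipids, Gpx4 and Aifm2 stop the chain reaction by separate routes, Slc3a2 serves the cystine uptake that feeds glutathione to Gpx4, and Ncoa4 releases iron from ferritin. Ptgs2 and Sat1 are genes whose transcripts rise in many cells that undergo ferroptosis, although inflammation, growth and other stresses also raise them.

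Liver RNA came from wild-type (WT) mice in 4 groups of 3 samples: ischemia-reperfusion injury on a normal diet (ND-IRI), sham operation on a normal diet (ND-Sham), injury on a high-fat diet (HFD-IRI) and sham operation on a high-fat diet (HFD-Sham). Diets lasted 4 months, the high-fat diet to give a fatty liver. For injury, the left and middle branches of the vessels entering the liver were tied for 1 h, and tissue was taken 6 h after release; sham mice had the same operation without the tie. The labels give no strain, sex or age, and do not say which lobe was sampled.

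Values are TPM, a length-scaled share of each library that sums to the same total everywhere, so sequencing depth is unknown and values carry no interval for counting error. Between 18935 and 20425 entries per library were above 0. Differences were tested with limma on log2(TPM + 1) over the 13364 genes that reached 1 TPM in 3 or more libraries, two-sided. A change is called when its adjusted p is under 0.05, and fold changes on this scale understate changes near 0 TPM. Nothing in the labels says that the 3 samples of a group came from separate animals, so p-values measure only the spread between samples, which may be technical, and an exact permutation test of 3 against 3 could not give a p below 0.1. ND-Sham 1 held the adipocyte marker Adipoq at 11.63 TPM, against at most 0.23 TPM in the other libraries, and HFD-Sham 2 was the highest of its group for 6 of the 8 genes. The median log2 change over all tested genes was 0.16 for ND-IRI against ND-Sham, 0.01 for HFD-IRI against HFD-Sham and 0.17 for HFD-Sham against ND-Sham. After scaling the libraries by median ratios these medians were 0.004, -0.004 and 0.006. On the normal diet 4035 genes were called higher and 2213 lower with injury, and 3477 higher and 3269 lower after that scaling.

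Injury was accompanied by higher Sat1, Slc3a2, Acsl4 and Ptgs2 and by lower Aifm2 on both diets, while Gpx4, Lpcat3 and Ncoa4 were called on neither diet, although some alternatives given below call Gpx4 and Ncoa4. On the normal diet 4 of the 8 genes rose and 1 fell, where 46.8% of all tested genes were called, 30.2% higher and 16.6% lower. On the high-fat diet the counts were again 4 higher and 1 lower, against 45.9% of all genes called, 24.0% higher and 21.9% lower. The median log2 change of the 8 genes was 0.84 on the normal diet and 0.68 on the high-fat diet, beside the 0.16 and 0.01 of all tested genes. Because the genes were chosen with earlier results known, these comparisons with all genes are descriptions and not tests. The shares of all genes given here also stand beside the injury counts of partner lists and cell markers below. All 8 passed the filter on low values, but Ptgs2 reached 1 TPM only in the 6 injured libraries, so it could be tested only because it was high there.

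**Figure D1:**
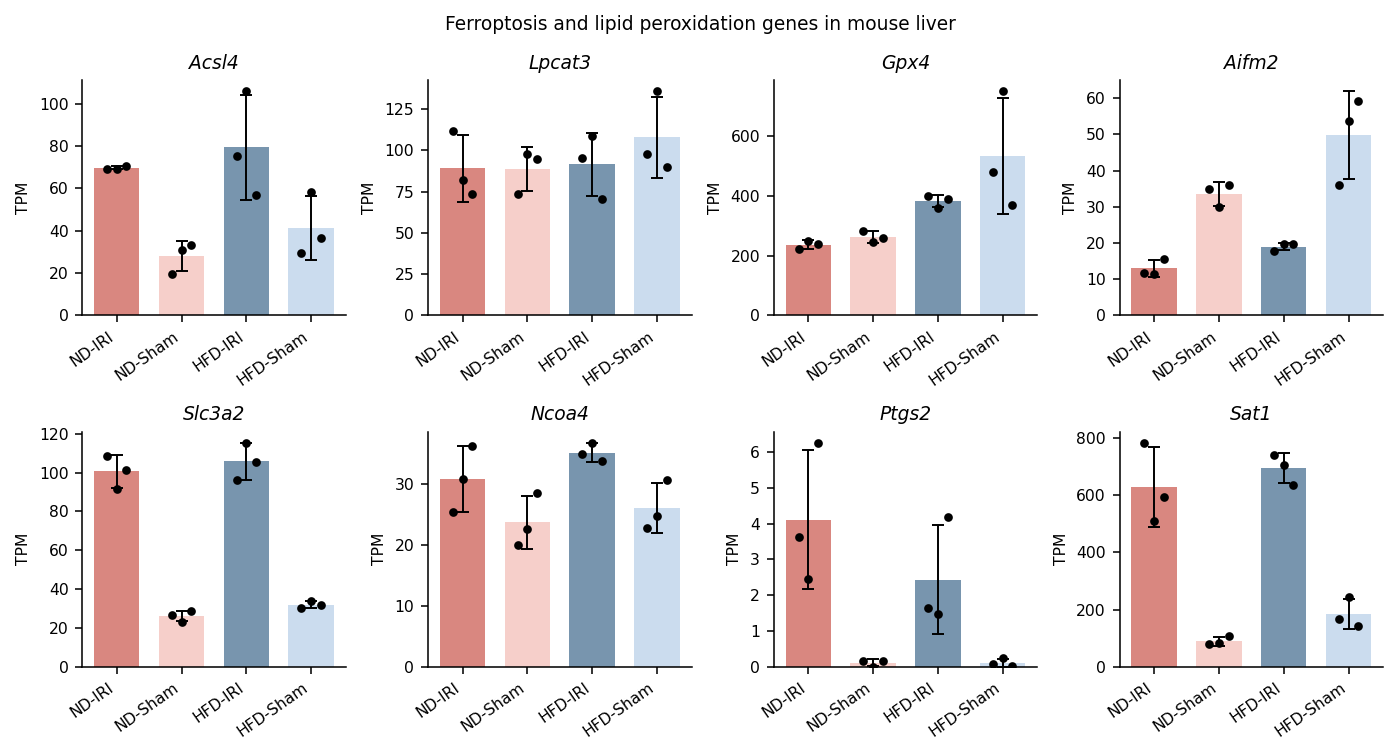
TPM of the 8 genes in every library (points), with the group mean (bar) and SD (line), n = 3 libraries per group; each vertical axis is linear and starts at 0. The injured libraries stand above the sham libraries of the same diet for Slc3a2, Sat1 and Ptgs2 and below them for Aifm2, while Lpcat3 overlaps throughout.

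**Figure D2:**
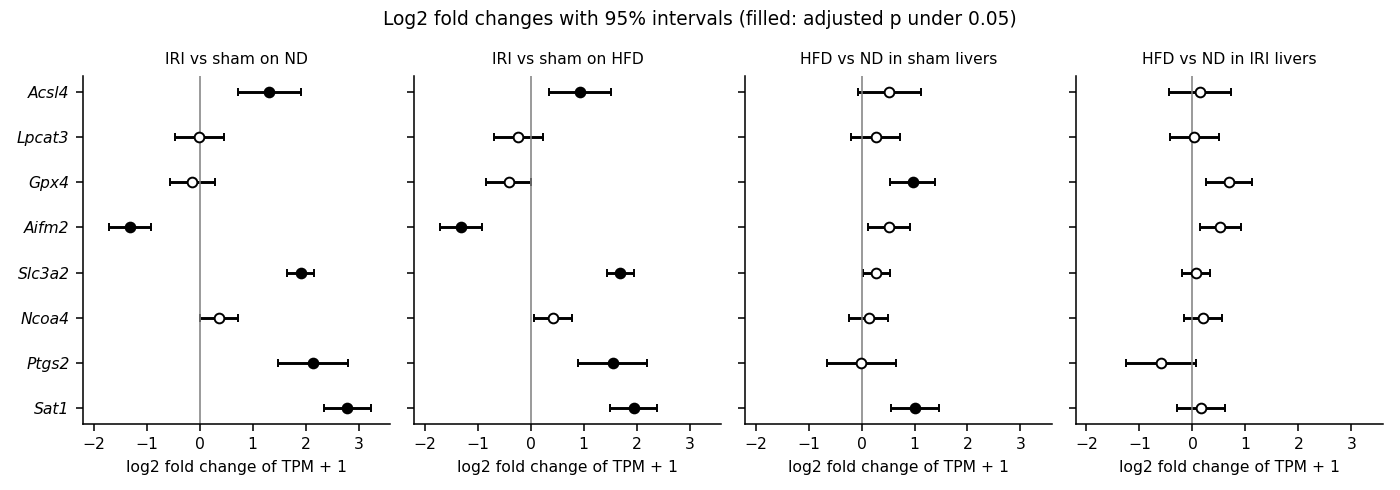
Log2 fold changes of TPM + 1 for the 8 genes in 4 comparisons, with 95% intervals from limma; filled points have an adjusted p under 0.05. Injury gives 5 filled points on each diet, and diet gives 2 in sham livers (Gpx4 and Sat1) and 0 in injured livers.

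Since 4 of the genes rose together and Aifm2 fell, the DNA just before and at their transcription starts is shown. The stretches run from 100 bases before the start to 30 bases from it, 5′ to 3′ on the gene's strand, as RefSeq gives them for build GRCm38.p6, and capitals mark the only motif found. They are Acsl4 at chrX:142390506-142390635 (minus strand), Slc3a2 at chr19:8713868-8713997 (minus), Sat1 at chrX:155216420-155216549 (minus), Ptgs2 at chr1:150099931-150100060 (plus) and Aifm2 at chr10:61720549-61720678 (plus).
Acsl4: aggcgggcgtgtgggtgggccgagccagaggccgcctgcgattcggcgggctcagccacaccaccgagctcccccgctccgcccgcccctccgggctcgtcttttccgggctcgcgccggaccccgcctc
Slc3a2: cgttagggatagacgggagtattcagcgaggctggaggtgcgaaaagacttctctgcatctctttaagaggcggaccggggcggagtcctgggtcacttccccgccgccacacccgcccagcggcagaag
Sat1: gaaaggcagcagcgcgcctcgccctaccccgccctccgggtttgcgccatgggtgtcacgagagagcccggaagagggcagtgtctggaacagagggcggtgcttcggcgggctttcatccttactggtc
Ptgs2: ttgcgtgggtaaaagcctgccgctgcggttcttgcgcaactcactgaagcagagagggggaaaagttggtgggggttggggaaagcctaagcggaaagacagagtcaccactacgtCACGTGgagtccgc
Aifm2: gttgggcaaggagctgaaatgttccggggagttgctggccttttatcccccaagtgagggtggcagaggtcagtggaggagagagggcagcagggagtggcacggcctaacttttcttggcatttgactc

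Motifs were searched on both strands of the whole windows supplied for the 8 genes, which reach from 250 bases before to 50 bases from each start and number 13 because some genes have several starts. No member window held TGACGTCA (the cyclic AMP response element), TGANTCA (AP-1), TGATGNAA (the ATF4 element) or GGANTTTCC (NF-kB), which were in 1.79%, 7.81%, 3.97% and 1.25% of all 32851 mouse windows. The E-box CACGTG was in the Ptgs2 window, 17 bases into the transcript counting the start as base 1, and in 7.15% of all windows. A single Ncoa4 window held TGACNNNGC (the antioxidant response element core) and TATAAA, which were in 12.4% and 13.6% of all windows. These are matches of letters within the windows and say nothing of sites farther away.

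Acsl4, the ligase that attaches coenzyme A to arachidonic and adrenic acid before they enter phospholipids, was measured at 69.31, 69.30 and 70.59 TPM in ND-IRI livers, against 19.74, 31.04 and 33.39 TPM in ND-Sham livers. In HFD-IRI livers it was 75.43, 105.84 and 56.95 TPM, against 29.33, 58.30 and 36.67 TPM in HFD-Sham livers. The normal-diet groups stood apart, with nearly equal values in the injured livers, whereas on the high-fat diet the lowest injured library lay just under the highest sham library. The log2 change was 1.32 ± 0.27 (SE, adjusted p = 0.00199, limma) on the normal diet and 0.93 ± 0.27 (adjusted p = 0.0146) on the high-fat diet. The second call was lost without HFD-Sham 1 (0.72, adjusted p = 0.0658) and without HFD-IRI 2 (0.71, adjusted p = 0.0668).

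Among the other long-chain acyl-CoA synthetases, Acsl1, the main synthetase of hepatocytes, averaged 131 ± 55.0 TPM in ND-IRI livers and 441 ± 82.2 TPM in ND-Sham livers, and 208 ± 35.3 TPM in HFD-IRI livers and 567 ± 160 TPM in HFD-Sham livers (SD, n = 3 each). It fell by 1.80 and 1.42 on the log2 scale (adjusted p = 0.00026 and 0.00132). Acsl5 rose on the normal diet by a log2 change of 0.70 (adjusted p = 0.00179) and had a log2 change of 0.31 on the high-fat diet (adjusted p = 0.0923), with a difference of -0.39 that did not pass (adjusted p = 0.547). On the high-fat diet it passed without HFD-Sham 2 (adjusted p = 0.0244) or HFD-IRI 3 (0.0367) and after quantile normalization (0.0449). Acsl3 passed neither test.

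Within the summed TPM of Acsl1, Acsl3, Acsl4 and Acsl5, Acsl4 thus made up 11.8%, 16.4% and 16.9% in ND-IRI livers, against 3.73%, 4.64% and 4.73% in ND-Sham livers. On the high-fat diet its share was 12.6%, 19.4% and 11.8% in HFD-IRI livers, against 4.68%, 6.83% and 3.79% in HFD-Sham livers. Every injured library lay above every sham library, including on the high-fat diet, where the TPM values of Acsl4 itself overlapped. Acsl1 fell to 26.8% ± 5.5 of the sum in ND-IRI livers, against 69.2% ± 3.6 in ND-Sham livers, and was at 38.3% ± 4.3 in HFD-IRI livers, against 69.0% ± 6.7 in HFD-Sham livers (SD, n = 3 each). These shares are given as descriptions, with no test.

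**Figure D3:**
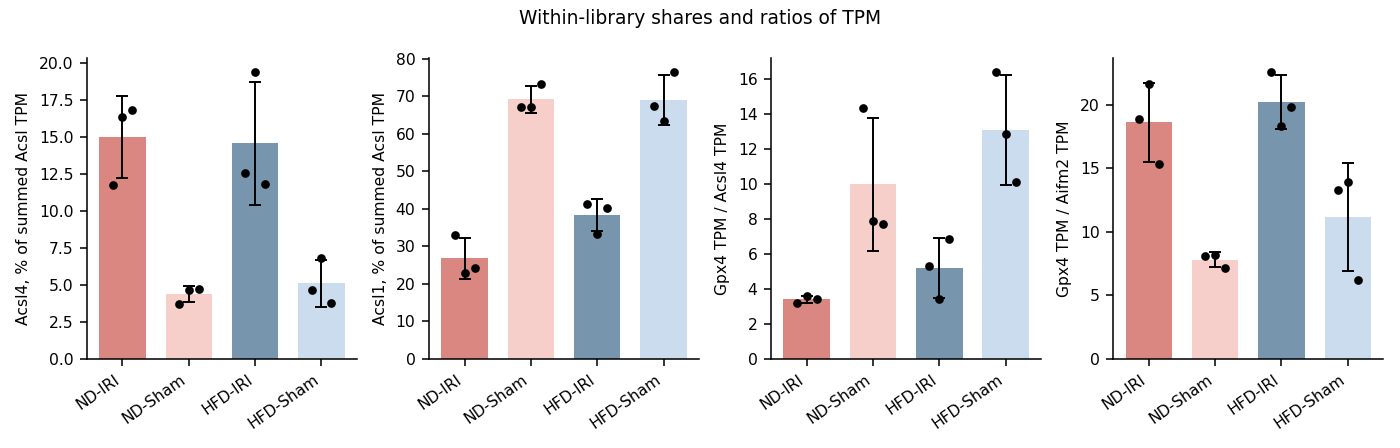
Shares and ratios within each library (points), with the group mean (bar) and SD (line), n = 3 libraries per group, on linear axes from 0: Acsl4 and Acsl1 as a percentage of the summed TPM of 4 Acsl genes, Gpx4 TPM per Acsl4 TPM, and Gpx4 TPM per Aifm2 TPM. Acsl4 makes up 11.8% to 19.4% of the sum in the 6 injured libraries and 3.73% to 6.83% in the 6 sham libraries, and Gpx4 per Acsl4 is 3.21 to 6.82 in the injured and 7.72 to 16.4 in the sham libraries.

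Lpcat3, the acyltransferase that inserts polyunsaturated acyl chains into lysophospholipids, was measured at 111.97, 82.06 and 73.42 TPM in ND-IRI livers, against 73.45, 97.78 and 94.91 TPM in ND-Sham livers. It was 95.49, 108.53 and 70.55 TPM in HFD-IRI livers, against 97.87, 135.77 and 89.99 TPM in HFD-Sham livers. All groups overlapped. The 95% interval of the log2 change was -0.47 to 0.46 on the normal diet and -0.70 to 0.23 on the high-fat diet. Lpcat3 supplied 93.2% to 97.4% of the summed TPM of Lpcat1, Lpcat2, Lpcat3 and Lpcat4 in the 12 libraries.

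Of 10 tested genes that make or oxidise polyunsaturated phospholipids, 0 rose and 4 fell on each diet: Fads2, Agpat3, Por and Pla2g6 on the normal diet, and Fads1, Fads2, Agpat3 and Pla2g6 on the high-fat diet. In comparison, 30.2% of all tested genes rose and 16.6% fell on the normal diet, and 24.0% and 21.9% on the high-fat diet. Fads2, the desaturase that starts the making of long polyunsaturated fatty acids, averaged 169 ± 46.4 TPM in ND-IRI livers and 389 ± 94.6 TPM in ND-Sham livers, and 318 ± 64.3 TPM in HFD-IRI livers and 752 ± 137 TPM in HFD-Sham livers. Its log2 change was -1.20 (adjusted p = 0.00125) and -1.24 (adjusted p = 0.00108). Pla2g6, a calcium-independent phospholipase that can remove oxidised acyl chains, averaged 19.2 ± 3.86 TPM in HFD-IRI livers, against 67.7 ± 19.1 TPM in HFD-Sham livers, a log2 change of -1.75 (adjusted p = 7.93e-05), with a log2 change of -0.74 on the normal diet (adjusted p = 0.0151). The call on the normal diet was lost without ND-Sham 2 (adjusted p = 0.0611), ND-Sham 3 (0.0508) or ND-IRI 3 (0.0569). The lipoxygenases Alox5, Alox12 and Alox15 did not pass the filter on low values, with group means of at most 1.20 TPM.

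Gpx4, the selenoenzyme that reduces phospholipid hydroperoxides with glutathione, is one of several glutathione peroxidases whose active site is a selenocysteine read from a TGA codon that otherwise stops translation. That codon ties them to a shared machinery, so it is shown for the 3 selenium-dependent members named here, in capitals with 24 coding bases on each side, 5′ to 3′ in build GRCm38 with the GENCODE annotation. The codons are number 129 of 253 in Gpx4 (chr10:80054737-80054739, plus strand), number 47 of 201 in Gpx1 (chr9:108339451-108339453, plus) and number 73 of 226 in Gpx3 (chr11:54907256-54907258, plus), counted over the longest annotated coding sequence.
Gpx4: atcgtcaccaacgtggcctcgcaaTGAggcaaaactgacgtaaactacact
Gpx1: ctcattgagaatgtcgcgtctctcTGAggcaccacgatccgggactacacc
Gpx3: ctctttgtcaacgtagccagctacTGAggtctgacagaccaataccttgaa
Of these 51 bases, 29 are identical between Gpx4 and Gpx1, 26 between Gpx4 and Gpx3, and 24 between Gpx1 and Gpx3.

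Gpx4 was measured at 222.17, 249.51 and 239.53 TPM in ND-IRI livers, against 283.25, 243.92 and 257.68 TPM in ND-Sham livers. In HFD-IRI livers it was 400.95, 359.28 and 388.64 TPM, against 480.38, 749.49 and 370.11 TPM in HFD-Sham livers. Injured and sham values overlapped on both diets, and HFD-Sham 2 was by itself far above the other libraries. The log2 change with injury was -0.14 (95% interval -0.57 to 0.29, adjusted p = 0.585) on the normal diet and -0.42 (-0.84 to 0.01, adjusted p = 0.102) on the high-fat diet. Without HFD-Sham 3, the lowest of its group, the change on the high-fat diet was -0.65 (adjusted p = 0.0115) and passed the test, and without HFD-Sham 2, the highest, it was -0.14 (adjusted p = 0.436). Averaged over both diets, a contrast added after the values were seen, Gpx4 had a log2 change of -0.28 (adjusted p = 0.101), which passed after median-ratio scaling (-0.39, adjusted p = 0.0288) and without HFD-Sham 3 (-0.39, adjusted p = 0.0115).

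Gpx4 was the most abundant glutathione peroxidase in every library, at 61.0% to 75.3% of the summed TPM of Gpx1, Gpx3, Gpx4, Gpx7 and Gpx8. Gpx1, the cytosolic enzyme that reduces hydrogen peroxide, averaged 91.3 ± 15.9 TPM in ND-IRI livers and 133 ± 10.5 TPM in ND-Sham livers, and 154 ± 26.0 TPM in HFD-IRI livers and 213 ± 2.13 TPM in HFD-Sham livers. It fell by 0.55 (adjusted p = 0.00881) and by 0.48 (adjusted p = 0.0178) on the log2 scale. The call on the high-fat diet was lost without HFD-IRI 1 (adjusted p = 0.0707) and without HFD-IRI 2 (adjusted p = 0.0639). Of the 5 tested glutathione peroxidases other than Gpx4, 0 rose and 2 fell on the normal diet. On the high-fat diet 1 rose and 1 fell, and the gene that rose was Gpx3, by a log2 change of 1.37.

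Of 7 tested genes that insert selenocysteine or carry selenium, 0 rose and 4 fell on the normal diet (Sephs2, Eefsec, Sepsecs and Selenop), while on the high-fat diet 0 rose and 5 fell (the same 4 and Pstk). The shares of all tested genes were 30.2% higher and 16.6% lower on the normal diet, and 24.0% and 21.9% on the high-fat diet. Sephs2, which makes the activated selenium donor, averaged 378 ± 36.1 TPM in ND-IRI livers and 1041 ± 11.8 TPM in ND-Sham livers, and 242 ± 61.1 TPM in HFD-IRI livers and 992 ± 101 TPM in HFD-Sham livers. Limma gave it log2 changes of -1.46 (adjusted p = 3.78e-05) and -2.06 (adjusted p = 5.23e-06), and no injured library overlapped a sham library. Eefsec, the elongation factor that brings selenocysteine to the ribosome, had log2 changes of -0.74 (adjusted p = 0.000768) and -1.10 (adjusted p = 5.83e-05). Sepsecs, which completes selenocysteine on its tRNA, had log2 changes of -0.58 (adjusted p = 0.00505) and -1.20 (adjusted p = 5.24e-05).

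Aifm2, also called FSP1, reduces coenzyme Q and vitamin K at the plasma membrane so that they can trap lipid radicals without glutathione. It was measured at 11.77, 11.54 and 15.57 TPM in ND-IRI livers, against 34.96, 29.86 and 36.03 TPM in ND-Sham livers, and at 17.77, 19.58 and 19.59 TPM in HFD-IRI livers, against 36.09, 53.72 and 59.32 TPM in HFD-Sham livers. Each of the 6 injured libraries was below each of the 6 sham libraries. The log2 change was -1.32 ± 0.18 (SE, adjusted p = 0.000134, limma) on the normal diet and -1.31 ± 0.18 (adjusted p = 0.000156) on the high-fat diet, and the difference between these effects was 0.003 (95% interval -0.55 to 0.56).

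The ratio of Gpx4 to Aifm2 TPM was therefore higher with injury, at 18.6 ± 3.13 in ND-IRI livers against 7.81 ± 0.569 in ND-Sham livers, and at 20.3 ± 2.14 in HFD-IRI livers against 11.2 ± 4.28 in HFD-Sham livers. The ratio of Gpx4 to Acsl4 went the other way, with 3.40 ± 0.198 in ND-IRI livers against 9.97 ± 3.79 in ND-Sham livers, and 5.18 ± 1.72 in HFD-IRI livers against 13.1 ± 3.15 in HFD-Sham livers (SD, n = 3 each). Neither ratio overlapped between injured and sham livers of a diet. No test was made of these ratios.

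Other suppressors of lipid radicals moved in both directions, as did all tested genes. Of 12 tested, 3 rose (Mboat1, Scd1 and Txnrd1) and 3 fell (Gch1, Prdx6 and Mgst1) on the normal diet, and 1 rose (Txnrd1) and 4 fell (Gch1, Dhodh, Prdx6 and Mgst1) on the high-fat diet. Among all tested genes 30.2% rose and 16.6% fell on the normal diet, and 24.0% and 21.9% on the high-fat diet. Mboat1 reached 1 TPM in 3 libraries, all injured, so it could be tested only because it was high there. Txnrd1, the cytosolic thioredoxin reductase and itself a selenoprotein, averaged 250 ± 76.0 TPM in ND-IRI livers and 63.7 ± 5.69 TPM in ND-Sham livers, and 310 ± 120 TPM in HFD-IRI livers and 80.8 ± 12.2 TPM in HFD-Sham livers. The change on the log2 scale was 1.91 (adjusted p = 0.000251) and 1.86 (adjusted p = 0.000327).

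Slc3a2 encodes the heavy chain CD98hc, which carries several amino acid transporters to the cell surface, among them the cystine importer formed with Slc7a11. It was measured at 108.70, 91.74 and 101.38 TPM in ND-IRI livers, against 26.60, 23.25 and 28.57 TPM in ND-Sham livers, and at 96.36, 115.34 and 105.62 TPM in HFD-IRI livers, against 30.02, 33.73 and 31.90 TPM in HFD-Sham livers. The groups were far apart on both diets, and no other of the 8 genes had so small a standard error. The log2 change was 1.91 ± 0.12 (SE, adjusted p = 1.03e-06, limma) on the normal diet and 1.70 ± 0.12 (adjusted p = 2.46e-06) on the high-fat diet, while the mean TPM was 3.85-fold and 3.32-fold higher.

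The cystine light chain itself was scarce: Slc7a11 averaged 1.12 ± 0.563 TPM in ND-IRI livers and 0.0133 ± 0.00577 TPM in ND-Sham livers, and 0.633 ± 0.304 TPM in HFD-IRI livers and 0.0967 ± 0.0306 TPM in HFD-Sham livers, and it did not pass the filter. Of the 4 light chains tested, 3 rose on the normal diet (Slc7a5, Slc7a6 and Slc7a7) and 2 on the high-fat diet (Slc7a5 and Slc7a6), and 0 fell. All tested genes rose in shares of 30.2% and 24.0% and fell in shares of 16.6% and 21.9%. Slc7a6 reached 1 TPM only in the 6 injured libraries and could be tested only through them. Slc7a5, which imports leucine and other large neutral amino acids, averaged 7.51 ± 2.67 TPM in ND-IRI livers and 1.90 ± 0.524 TPM in ND-Sham livers, and 7.54 ± 1.97 TPM in HFD-IRI livers and 1.30 ± 0.251 TPM in HFD-Sham livers. Its log2 change was 1.52 (adjusted p = 0.000585) and 1.87 (adjusted p = 0.000159).

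Glutathione supply genes moved in both directions, as did all tested genes. Of 9 tested, 3 rose (Gclc, Gsr and Chac1) and 2 fell (Cth and Gls2) on the normal diet, and 4 rose (Gclc, Gsr, Chac1 and Slc1a5) and 1 fell (Gclm) on the high-fat diet. For all tested genes the shares were 30.2% higher and 16.6% lower, and 24.0% and 21.9%. Gclc, the catalytic subunit of the rate-limiting enzyme of glutathione synthesis, ranged from 580 to 1908 TPM in ND-IRI livers, against 126 to 165 TPM in ND-Sham livers, and from 1374 to 2960 TPM in HFD-IRI livers, against 392 to 486 TPM in HFD-Sham livers. Limma gave it log2 changes of 3.03 (adjusted p = 7.17e-05) and 2.19 (adjusted p = 0.000694). Chac1, which breaks glutathione down, rose by a log2 change of 2.74 (adjusted p = 0.000415) and 2.84 (adjusted p = 0.000356). It averaged 55.6 ± 30.6 TPM in ND-IRI livers and 7.52 ± 4.66 TPM in ND-Sham livers, and 70.8 ± 19.5 TPM in HFD-IRI livers and 9.43 ± 4.77 TPM in HFD-Sham livers (SD, n = 3 each).

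Cth, which makes cysteine from cystathionine, averaged 265 ± 12.4 TPM in ND-IRI livers and 689 ± 143 TPM in ND-Sham livers, a log2 change of -1.36 (adjusted p = 0.00022). In HFD-IRI livers it averaged 257 ± 61.3 TPM, against 295 ± 68.8 TPM in HFD-Sham livers, a log2 change of -0.20 (adjusted p = 0.445). The difference between these effects, 1.16, did not pass the test (adjusted p = 0.131). In sham livers it was lower on the high-fat diet by a log2 change of -1.23 (adjusted p = 0.00504).

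Ncoa4, the receptor that takes ferritin to autophagosomes, was measured at 25.33, 30.67 and 36.09 TPM in ND-IRI livers, against 19.94, 22.56 and 28.45 TPM in ND-Sham livers. It was 34.81, 36.67 and 33.64 TPM in HFD-IRI livers, against 22.74, 24.73 and 30.54 TPM in HFD-Sham livers. The groups overlapped on the normal diet and stood apart by a small margin on the high-fat diet. The log2 change was 0.36 (95% interval 0.0005 to 0.73, adjusted p = 0.0931) and 0.43 (0.06 to 0.79, adjusted p = 0.0536), and neither passed. The first passed without ND-Sham 3 (adjusted p = 0.0406) or ND-IRI 1 (0.0321), and the second under 9 of 20 alternatives, among them those without ND-Sham 1, ND-Sham 3, ND-IRI 1, ND-IRI 3 or HFD-Sham 3 (adjusted p = 0.0336 to 0.0488). Averaged over both diets, a contrast added after the values were seen, the change was 0.39 (adjusted p = 0.0118, where 61.0% of genes were called, 35.2% higher and 25.8% lower), but it did not pass after median-ratio scaling (0.29, adjusted p = 0.0889) or quantile normalization (0.22, adjusted p = 0.129).

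Of 8 tested partners of Ncoa4 in ferritin autophagy, 3 rose (Fth1, Herc2 and Rb1cc1) and 0 fell on each diet. Over all tested genes, 30.2% rose and 16.6% fell on the normal diet, and 24.0% and 21.9% on the high-fat diet. Fth1, the ferritin heavy chain that Ncoa4 binds, averaged 1112 ± 232 TPM in ND-IRI livers and 782 ± 29.6 TPM in ND-Sham livers, and 1848 ± 179 TPM in HFD-IRI livers and 1190 ± 115 TPM in HFD-Sham livers. The log2 change on the high-fat diet was 0.63 (adjusted p = 0.00534). On the normal diet it was 0.49 (adjusted p = 0.0207), and that call was lost after median-ratio scaling (0.29, adjusted p = 0.163) and without ND-Sham 1, ND-IRI 2 or ND-IRI 3 (adjusted p = 0.0533, 0.0728 and 0.0963).

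Among 15 tested genes of iron uptake, storage and release, on the normal diet 6 rose and 3 fell, and on the high-fat diet 5 rose and 2 fell. Genes at large rose in 30.2% and fell in 16.6% on the normal diet, and in 24.0% and 21.9% on the high-fat diet. Hmox1 and Slc39a14 are described because they had the 2 largest called changes among those of at least 5 TPM. Both rose, and the genes that fell are not named here. Hmox1, which frees iron from heme, averaged 1036 ± 129 TPM in ND-IRI livers and 41.8 ± 23.1 TPM in ND-Sham livers, and 1209 ± 275 TPM in HFD-IRI livers and 86.3 ± 47.9 TPM in HFD-Sham livers. Its log2 change was 4.77 (adjusted p = 8.05e-06) and 3.90 (adjusted p = 2.96e-05). Slc39a14, an importer of iron that is not bound to transferrin, rose by log2 changes of 2.14 (adjusted p = 0.000138) and 2.66 (adjusted p = 3.34e-05).

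Ptgs2, the inducible cyclooxygenase COX-2 that starts prostanoid synthesis, was measured at 3.63, 2.46 and 6.26 TPM in ND-IRI livers, against 0.17, 0 and 0.16 TPM in ND-Sham livers. It was 1.65, 1.47 and 4.19 TPM in HFD-IRI livers, against 0.07, 0.24 and 0.02 TPM in HFD-Sham livers. It was near 0 in every sham library and low, but present, in every injured one. The log2 change of TPM + 1 was 2.14 ± 0.30 (SE, adjusted p = 0.000158, limma) on the normal diet and 1.55 ± 0.30 (adjusted p = 0.00147) on the high-fat diet. Mean TPM was 37.4-fold and 22.2-fold higher, over sham levels near 0, and with a pseudocount of 0.1 in place of 1 the log2 changes were 4.36 and 3.58, above those of Sat1 (2.80 and 1.95).

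Neutrophil markers, like Ptgs2, were higher in injured than in sham livers. All 8 of 8 listed neutrophil markers rose with injury on both diets, and their summed TPM was 235 to 637 in ND-IRI livers, against 19.6 to 21.7 in ND-Sham livers, and 195 to 530 in HFD-IRI livers, against 6.78 to 16.1 in HFD-Sham livers. Of these markers, Cxcr2 and Mmp8 reached 1 TPM only in the 6 injured libraries and Ly6g in 3 of them, so they could be tested only through that group. Ly6g, a defining marker, was at 0 in ND-Sham 1 and in all 3 HFD-Sham libraries. Within the HFD-IRI group the library with the highest marker sum also had the highest Ptgs2, and within the ND-IRI group the library with the highest marker sum had the lowest Ptgs2. The part of these cells in the Ptgs2 values was not tested. In bulk tissue, more or fewer cells of a type and more or less RNA per cell cannot be told apart.

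**Figure D4:**
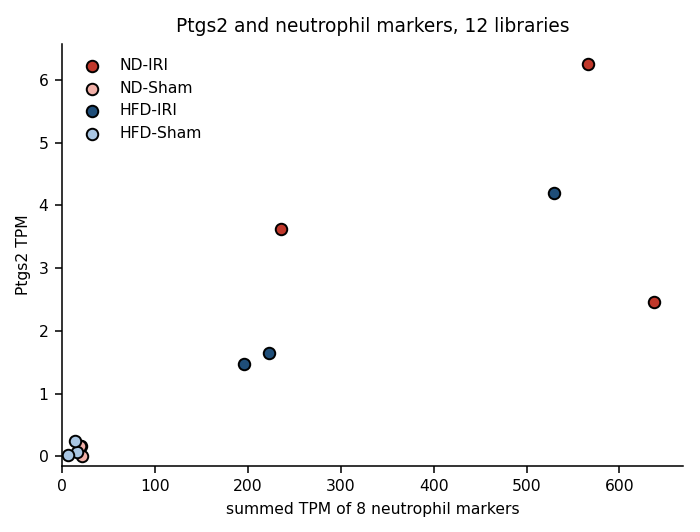
Ptgs2 TPM (vertical) against the summed TPM of 8 neutrophil markers (horizontal) in each of the 12 libraries, coloured by group, on linear axes. The 6 sham libraries lie together at a Ptgs2 of at most 0.24 TPM, while the injured libraries spread from 1.47 to 6.26 TPM.

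Other cell markers also moved with injury. Of 6 monocyte and macrophage markers 3 rose and 1 fell on each diet, Itgam having reached 1 TPM only in the 6 injured libraries, with sums of 134 to 234 TPM in ND-IRI livers, against 80.2 to 155 TPM in ND-Sham livers, and 205 to 307 TPM in HFD-IRI livers, against 101 to 223 TPM in HFD-Sham livers. Of 4 Kupffer cell markers 0 rose, and 2 fell on the normal diet and 1 on the high-fat diet, with sums of 35.3 to 76.5 TPM in ND-IRI livers, against 105 to 125 TPM in ND-Sham livers, and 38.6 to 93.4 TPM in HFD-IRI livers, against 86.6 to 150 TPM in HFD-Sham livers. Of 5 hepatocyte markers 0 rose on either diet, while 3 fell on the normal diet and 0 on the high-fat diet.

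Markers of further cell types moved as well. All 4 of 4 cholangiocyte markers rose on both diets, with sums of 41.3 to 64.1 TPM in ND-IRI livers, against 4.99 to 13.2 TPM in ND-Sham livers, and 32.6 to 60.4 TPM in HFD-IRI livers, against 6.97 to 13.2 TPM in HFD-Sham livers. Of 5 endothelial markers 3 rose and 1 fell on each diet, with sums of 129 to 149 TPM in ND-IRI livers, against 34.9 to 47.3 TPM in ND-Sham livers, and 137 to 167 TPM in HFD-IRI livers, against 44.2 to 66.8 TPM in HFD-Sham livers. Of 5 red blood cell and platelet markers 5 rose on the normal diet and 3 on the high-fat diet, with sums of 462 to 1450.2 TPM in ND-IRI livers, against 97.5 to 126 TPM in ND-Sham livers, and 613 to 2090.2 TPM in HFD-IRI livers, against 73.7 to 122 TPM in HFD-Sham livers. Of 4 stellate cell markers 1 rose on the normal diet and 1 fell on the high-fat diet. The part of all these cells in the changes of the 8 genes was not tested.

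Prostanoid genes around Ptgs2 were split. Of 10 tested, 3 rose (Ptges3, Ptgis and Ptger4) and 2 fell (Hpgd and Ptger2) on the normal diet, and the same 3 rose and 3 fell (Ptgs1, Hpgds and Hpgd) on the high-fat diet. Likewise 30.2% of all tested genes rose and 16.6% fell on the normal diet, and 24.0% and 21.9% on the high-fat diet. Ptger4 reached 1 TPM in 3 libraries, all injured, and Ptger2 and Hpgds in 3 sham libraries each, so these 3 genes could be tested only through the group where they were high. Ptgis, the prostacyclin synthase, averaged 6.88 ± 3.40 TPM in ND-IRI livers and 2.17 ± 1.81 TPM in ND-Sham livers, and 10.5 ± 3.43 TPM in HFD-IRI livers and 2.16 ± 0.212 TPM in HFD-Sham livers, with log2 changes of 1.37 (adjusted p = 0.0102) and 1.82 (adjusted p = 0.00206). Hpgd, the dehydrogenase that inactivates prostaglandins, averaged 61.3 ± 7.65 TPM in ND-IRI livers and 152 ± 17.5 TPM in ND-Sham livers, and 113 ± 41.4 TPM in HFD-IRI livers and 253 ± 41.6 TPM in HFD-Sham livers. The change on the log2 scale was -1.30 (adjusted p = 0.00056) and -1.20 (adjusted p = 0.001).

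Sat1, which acetylates spermidine and spermine and so starts their breakdown and export, had the largest change of the 8 on the scale of log2(TPM + 1), which lowers the changes of scarce genes such as Ptgs2. It was measured at 782.23, 510.11 and 592.44 TPM in ND-IRI livers, against 78.58, 83.02 and 107.20 TPM in ND-Sham livers, and at 739.76, 706.60 and 635.27 TPM in HFD-IRI livers, against 168.03, 242.78 and 141.56 TPM in HFD-Sham livers. The injured livers of the diets overlapped, while the sham livers of the high-fat diet all lay above those of the normal diet. The log2 change was 2.79 ± 0.21 (SE, adjusted p = 2.52e-06, limma) on the normal diet and 1.94 ± 0.21 (adjusted p = 2.46e-05) on the high-fat diet, and mean TPM was 7.01-fold and 3.77-fold higher.

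Polyamine genes moved in both directions. Of 11 tested, 5 rose on each diet (Odc1, Amd1, Srm, Smox and Azin1), while 2 fell on the normal diet (Azin2 and Sat2) and 3 on the high-fat diet (Paox, Oaz2 and Sat2). Taking all tested genes, 30.2% rose and 16.6% fell on the normal diet, and 24.0% and 21.9% on the high-fat diet. Odc1, Amd1 and Srm serve synthesis, while of the genes of oxidation and acetylation other than Sat1, Smox rose and Sat2 fell on both diets. Paox was called lower only on the high-fat diet. Odc1, the first enzyme of polyamine synthesis, averaged 222 ± 16.6 TPM in ND-IRI livers and 53.1 ± 7.94 TPM in ND-Sham livers, and 236 ± 35.6 TPM in HFD-IRI livers and 59.2 ± 4.71 TPM in HFD-Sham livers. Its log2 change was 2.05 (adjusted p = 1.76e-06) and 1.97 (adjusted p = 2.56e-06). Smox, which oxidises spermine and releases hydrogen peroxide, averaged 18.3 ± 1.39 TPM in ND-IRI livers and 1.86 ± 0.68 TPM in ND-Sham livers, and 37.3 ± 8.58 TPM in HFD-IRI livers and 5.80 ± 1.71 TPM in HFD-Sham livers, with log2 changes of 2.78 (adjusted p = 5.75e-06) and 2.50 (adjusted p = 1.32e-05). Amd1, which supplies the aminopropyl donor, rose by log2 changes of 0.70 (adjusted p = 0.0102) and 0.74 (adjusted p = 0.00774).

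**Figure D5:**
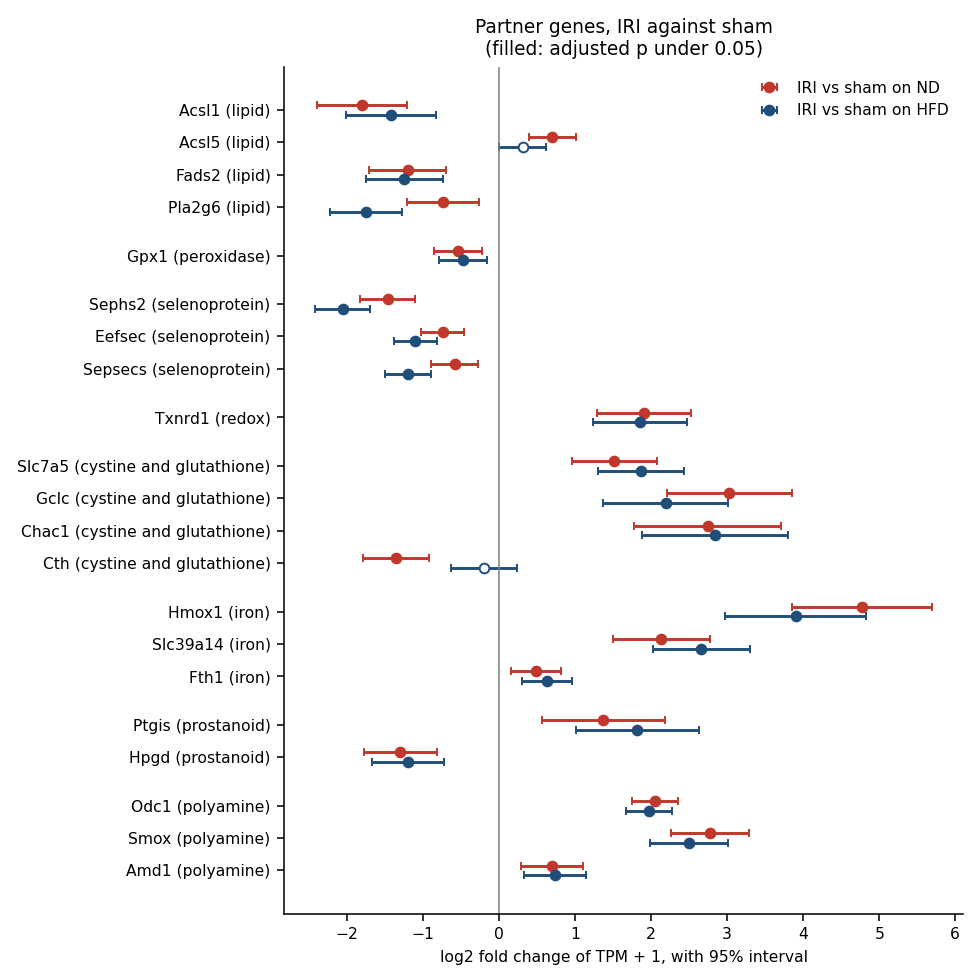
Log2 fold changes of TPM + 1, injury against sham, for 21 partner genes of the 8, with 95% intervals from limma on the normal diet (red) and the high-fat diet (blue); filled points have an adjusted p under 0.05. Hmox1 has the largest rise and Sephs2 the largest fall on the high-fat diet among these genes, and Acsl5 and Cth are open only on the high-fat diet.

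Diet without injury raised 2 of the 8 genes and lowered 0, where 5.84% of all tested genes were called, 4.63% higher and 1.20% lower, in HFD-Sham against ND-Sham livers. The whole split was 619 higher and 161 lower, and 275 higher and 207 lower after median-ratio scaling. The called genes were Gpx4, at 480.38, 749.49 and 370.11 TPM in HFD-Sham livers against 283.25, 243.92 and 257.68 TPM in ND-Sham livers, and Sat1, at 168.03, 242.78 and 141.56 TPM in HFD-Sham livers against 78.58, 83.02 and 107.20 TPM in ND-Sham livers. Both had groups that did not overlap, as did Aifm2 and Slc3a2, which were not called. The log2 change of Gpx4 was 0.97 ± 0.20 (SE, adjusted p = 0.0152, limma) and that of Sat1 was 1.01 ± 0.21 (adjusted p = 0.0154).

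Both diet calls depended on the libraries included and on the scaling. That of Gpx4 was lost without ND-Sham 2 (adjusted p = 0.0673), without ND-Sham 3 (0.0581), after median-ratio scaling (0.76, adjusted p = 0.0597) and in a fit of the 2 groups alone (adjusted p = 0.0782). That of Sat1 was lost without ND-Sham 2 (adjusted p = 0.0677), without HFD-Sham 2 (0.79, adjusted p = 0.0652), after median-ratio scaling (0.81, adjusted p = 0.124) and in a fit of the 2 groups alone (adjusted p = 0.0587). Aifm2 had a log2 change of 0.52 (adjusted p = 0.117), which passed without HFD-Sham 1 (0.74, adjusted p = 0.0345).

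In injured livers 0 of the 8 genes was called between diets by limma, with 2 at an unadjusted p under 0.05, where 3.86% of all genes were called, 2.38% higher and 1.48% lower, in HFD-IRI against ND-IRI livers. Those 2 were Gpx4 and Aifm2, and neither overlapped between the diets. The share of all genes whose groups do not overlap is not given here. Gpx4 was at 400.95, 359.28 and 388.64 TPM in HFD-IRI livers against 222.17, 249.51 and 239.53 TPM in ND-IRI livers, with a log2 change of 0.69 (95% interval 0.26 to 1.12, adjusted p = 0.0816). For Aifm2 the log2 change was 0.53 (0.13 to 0.92, adjusted p = 0.157). Gpx4 passed without HFD-Sham 2 (adjusted p = 0.00938), without HFD-Sham 3 (0.0302) and in a fit of the 2 groups alone (0.0283). Averaged over sham and injured livers, a contrast added after the values were seen, Gpx4 was higher on the high-fat diet by a log2 change of 0.83 (adjusted p = 0.00289), where 9.78% of all genes were called, 7.52% higher and 2.26% lower. This call held under each of the 19 alternatives run for it.

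The same average gave log2 changes of 0.53 for Aifm2 (adjusted p = 0.0235) and 0.59 for Sat1 (adjusted p = 0.026). The call of Aifm2 was lost under 6 of 19 alternatives (adjusted p up to 0.0958), among them those without ND-Sham 2, ND-IRI 2, HFD-Sham 2 or HFD-IRI 2, where it lay between 0.0518 and 0.0664. That of Sat1 was lost under 8 of 19 (adjusted p up to 0.147), among them those without ND-Sham 2, ND-IRI 2, ND-IRI 3, HFD-Sham 2, HFD-IRI 1 or HFD-IRI 2, where it lay between 0.053 and 0.0664. Acsl4, Lpcat3, Ptgs2, Slc3a2 and Ncoa4 were called in none of the diet contrasts.

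Partner genes were called between the diets in both directions, and those named here are not all of them. In sham livers the log2 change, high-fat against normal diet, was 1.58 for Gclc, 0.96 for Fads2, 0.60 for Fth1 and -1.23 for Cth. In injured livers it was 0.92 for Fads2, 0.75 for Fth1, -0.996 for Gls2, -0.86 for Paox and -0.67 for Sephs2. Gpx1 was higher on the high-fat diet in sham livers (log2 change 0.68, adjusted p = 0.0181) and in injured livers (0.75, adjusted p = 0.0133). The first call was lost without ND-Sham 2, ND-Sham 3, HFD-Sham 1 or HFD-Sham 2 (adjusted p = 0.0554 to 0.0802), after median-ratio scaling (adjusted p = 0.165) and after quantile normalization (0.07). The second was lost without ND-IRI 2 (adjusted p = 0.0635) and in a fit of the 2 groups alone (0.0816). Pla2g6 was higher in HFD-Sham than in ND-Sham livers by a log2 change of 1.21 (adjusted p = 0.00867), a call lost after median-ratio scaling (adjusted p = 0.0625), and Smox by 1.25 (adjusted p = 0.0108), a call lost without HFD-Sham 2 (adjusted p = 0.0582) and in a fit of the 2 groups alone (0.0557).

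The size of the injury effect differed between diets for 0 of the 8 genes in the limma test of the difference, which called 0.0973% of all genes, 0.0449% higher and 0.0524% lower, and 1 gene had an unadjusted p under 0.05. That gene was Sat1, whose effect was smaller on the high-fat diet by a log2 difference of -0.84 (95% interval -1.48 to -0.21, unadjusted p = 0.0133, adjusted p = 0.317). For Acsl4 the difference was -0.38 (-1.22 to 0.45), for Slc3a2 -0.21 (-0.58 to 0.16), for Gpx4 -0.28 (-0.88 to 0.33) and for Ptgs2 -0.59 (-1.52 to 0.34). These intervals leave room for sizeable differences, and a p above the threshold does not show that the diets act alike.

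Over the 12 libraries, the genes nearest in pattern were found as those with the smallest root mean square difference of log2(TPM + 1), each gene centred on its mean. For Slc3a2 they were Taf4b (0.128), Sqstm1 (0.131) and Arf6 (0.144), and for Acsl4 Lysmd3 (0.186), Cast (0.219) and Trak2 (0.232). For Ptgs2 they were Ccl3 (0.198), Gla (0.251) and Osm (0.256), and for Sat1 Sowahc (0.271), Ccng2 (0.282) and Prkab2 (0.282). For Aifm2 they were Abcc2 (0.172), Acad11 (0.208) and Nudt12 (0.215), and for Gpx4 Cryzl2 (0.129), Them6 (0.130) and Col5a1 (0.159). Lpcat3 and Ncoa4 varied by under 1 between group means on the log2 scale and were left out. The libraries are shared by all genes, so this likeness is a description with no test.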

How the data were processed

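Poly(A) RNA was sequenced as strand-specific libraries, per the labels' protocols. The authors deposited TPM per gene symbol and sample, made against mouse build GRCm39 (mm39), per the submitters' processing notes. For the aligner, the counting tool, the annotation and whether strand was used, the entry is: not given in the sources used here. No position in that build is reported. A second sheet, with 23 sample columns for 6 genes, had names that match no sample and was left out.

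The 13364 genes that reached 1 TPM in 3 or more of the 12 libraries were fitted as log2(TPM + 1), with 1 mean per group and a variance trend, by limma 3.58.1 under R 4.3.3. The 5 contrasts were tested two-sided, with Benjamini-Hochberg adjustment over all tested genes, and 2 averaged contrasts were added after the values were seen. The method was also run on simulated data with independent noise and few changed genes. That setting is simpler than these data, so the run checks the code and does not bear on the results. The 8 genes, 12 partner lists, cell markers and motifs were chosen with earlier results of these data known. A rule named, per list and contrast, up to 2 called genes with the largest change and a mean of at least 5 TPM, besides fixed partners; other list members named without values were chosen after their values were seen. Promoters came from RefSeq (GRCm38.p6, 8 of 8 genes matched) and selenocysteine codons from GENCODE (GRCm38). Python 3.11.15 with matplotlib 3.10.9 drew the figures. Alternatives numbered 20 and are compared in the closing section.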

Additional observations from a re-analysis of the deposited data

How the results depend on the processing

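Slc3a2, Sat1, Aifm2 and, where tested, Ptgs2 passed on both diets under every alternative run, as did Acsl4 on the normal diet. A filter at 5 TPM left Ptgs2 untested. Leaving out a library gave 5 to 6 calls among the 8 on the normal diet and 4 to 7 on the high-fat diet, where Acsl4 was lost in 2 fits and Gpx4 gained in 1. When ND-Sham 1 and ND-IRI 1 were both left out, the injury calls of the 8 genes were the same on the normal diet, with Ncoa4 added on the high-fat diet (0.43, adjusted p = 0.0255). Diet counts were less stable. In HFD-Sham against ND-Sham livers, 0 of the 8 genes were called after median-ratio scaling and 0 in a fit of the groups compared, and 0 to 3 when leaving out a library. All genes called were 482, 367 and 247 to 1036, and 1735 without ND-Sham 1 and ND-IRI 1. In HFD-IRI against ND-IRI livers, 1 of the 8 was called in a fit of the groups compared and 0 to 1 when leaving out a library, with all genes called 304 and 237 to 605. For the averaged diet contrast, 1 of the 8 was called after median-ratio scaling and 1 to 3 when leaving out a library, with 795 to 1642 genes in all. For the difference between the injury effects, all genes called were 25 at a pseudocount of 0.1, 21 without a filter, 20 after quantile normalization, 326 without ND-Sham 1 and ND-IRI 1 and 1 to 73 when leaving out a library. The causes were not tested.

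Signs turned only for changes that were not called. In HFD-Sham against ND-Sham livers, Ncoa4 was at -0.061 after median-ratio scaling and -0.057 after quantile normalization, and Ptgs2 at 0.0051 after quantile normalization and 0.038 without ND-Sham 1 and ND-IRI 1. In HFD-IRI against ND-IRI livers, quantile normalization gave -0.034 for Lpcat3 and -0.016 for Slc3a2. For the difference between the injury effects, leaving out both libraries gave 0.074 for Lpcat3 and -0.085 for Aifm2. Leaving out a library gave -0.084 to 0.057 for Ptgs2 and diet in sham livers, -0.095 to 0.21 for Lpcat3 and -0.088 to 0.35 for Acsl4 and diet in injured livers, and -0.18 to 0.12 for Lpcat3 and injury on the normal diet. For the difference between the injury effects it gave -0.21 to 0.14 for Aifm2, -0.073 to 0.18 for Ncoa4 and -0.51 to 0.00038 for Gpx4.

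Same-numbered libraries of different groups correlated at -0.188 to 0.418 in their deviations from the group means (3 of 18 pairs over 0.1). Other-numbered libraries correlated at -0.413 to 0.310 (12 of 36 pairs over 0.1). Of the 12 libraries, 6 correlated best with one of their own number, and no chance level was computed for this count. These values do not settle whether libraries are paired, and the numbers were not taken as pairs in the main fit. With the replicate block, 5 of the 8 genes were called for injury on the normal diet, 6 on the high-fat diet (Ncoa4 added, 0.43, adjusted p = 0.0305), 2 for diet in sham livers, 0 for diet in injured livers and 0 for the difference, among 5879, 5762, 568, 448 and 9 genes. Depth was unknown, so the precision of low values such as Ptgs2 in sham livers could not be judged.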
